A study of Mus musculus with 6 samples.

Results

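DNA methylation was examined at 32 mouse genes that are known tumour suppressors or inhibitors of WNT signalling, in blood stem and progenitor cells with a knock-in allele of Idh1. The genes were taken as a list and located by their RefSeq extents on the mouse build mm10. CpG positions covered in all 6 libraries and lying within 1 kb of a gene or inside it were assigned to it. Of the 552338 such shared positions in the genome, 1692 fell in 31 of the 32 genes. Sfrp4 held 0. Positions within 1 kb of either end of a gene are called its ends, and those more than 1 kb inside it are called its body. At least 5 shared positions were needed for a comparison, which left 24 gene ends and 16 gene bodies of 30 genes, out of 21537 such regions in the genome. Thbs1 was measured below that number, with 2 positions in its ends and 4 in its body.

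The KI groups carried the genotype IDH1+/lsl VavCre+, and the Control groups, their littermates, were IDH1+/+ VavCre+. Both thus carried Cre driven by Vav, a promoter active in blood cells, and the label does not name the base change of the knock-in allele. In each genotype, long-term stem cells (LT-HSC, Lin- Sca+ Kit+ CD150+ CD48-), short-term stem cells (ST-HSC, which are CD48+) and multipotent progenitors (MPP, which are CD150-) were sorted from the pooled bone marrow of 6 male C57BL/6 mice aged 7 to 10 months. Each genotype and cell type gave 1 library, so no group had a replicate. Enhanced reduced representation bisulfite sequencing (eRRBS) was used, which reads CpG-rich restriction fragments after bisulfite has converted unmethylated cytosine.

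CpG islands at the promoters of growth-restraining genes are mostly free of methylation in normal cells, and their methylation is a known route to silencing in tumours. The Dkk and Sfrp families, Wif1 and Sost are grouped here as secreted WNT antagonists, which act outside the cell. Apc and Axin2 act inside the cell on the complex that degrades beta-catenin. Mutant IDH1 enzymes make a metabolite that inhibits the TET enzymes, which oxidise methylated cytosine. The comparison of KI with Control asks whether these genes carry more methylation with the knock-in allele.

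The libraries held 38284759 to 53884467 reads, counted as coverage summed over positions, with a median of 27 to 45 reads per position. At the members' positions the median was 66.5, 34 and 54 reads in KI LT-HSC, ST-HSC and MPP, against 46, 38 and 47 reads in Control. The share of the members' positions read as exactly 0% also differed by library. It was 53.0, 49.8 and 45.7% in KI LT-HSC, ST-HSC and MPP, against 64.1, 57.0 and 70.4% in Control. Over all shared positions this share was 52.3, 51.1 and 46.5% in KI, and 59.97, 56.2 and 64.98% in Control, so the difference had the same sign there. Its part in the differences below was not tested. The KI libraries came from 3 sequencing lanes and the Control libraries from 2, with 0 lanes in common, so effects of the lane and of the genotype cannot be told apart. A sort cannot be checked by methylation alone. Of 25 genes that mark the sorted or other blood and stromal cells, 8 gene ends and 4 gene bodies were measured, and none differed by 10 points or more between KI and Control in any cell type. The widest was Lepr, a stromal marker, whose ends stood at 13.5, 14.1 and 5.88% in KI LT-HSC, ST-HSC and MPP, against 3.59, 7.84 and 5.24% in Control. Klf1, a red cell factor, stood at 6.59% in KI LT-HSC and 0% in Control LT-HSC. The part of other cells in the results was not tested.

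The measured sequence was CpG-rich. RefSeq promoters of build GRCm38.p6, with 250 bases before each start, were at hand for 26 starts of 21 members. In these 250 bases they held a median of 17 CpGs, against a median of 6 over 32851 promoters. In the same window CCGG, which reads the same on both strands and is the recognition site of the enzyme commonly used in this method, was found in 80.8% of the members' promoters and in 47.1% of all promoters. The 250 bases before 5 starts are shown because they hold measured promoter CpGs of 2 cell cycle inhibitors, a WNT antagonist, a cytokine signalling suppressor and a matrix protein. They are written 5′ to 3′ on the gene's strand, with the CpGs measured in all 6 libraries in capitals. The windows are chr4:89294620-89294869 for Cdkn2a (minus strand), chr6:134920151-134920400 for Cdkn1b (plus), chr10:121033754-121034003 for Wif1 (plus), chr16:10785537-10785786 for Socs1 (minus) and chr10:86300162-86300411 for Timp3 (plus).
Cdkn2a promoter: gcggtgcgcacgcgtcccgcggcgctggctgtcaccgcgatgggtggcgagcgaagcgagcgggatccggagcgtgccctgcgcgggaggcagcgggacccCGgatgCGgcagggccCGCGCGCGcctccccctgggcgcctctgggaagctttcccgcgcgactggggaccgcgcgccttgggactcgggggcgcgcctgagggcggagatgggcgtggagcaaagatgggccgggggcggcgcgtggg
Cdkn1b promoter: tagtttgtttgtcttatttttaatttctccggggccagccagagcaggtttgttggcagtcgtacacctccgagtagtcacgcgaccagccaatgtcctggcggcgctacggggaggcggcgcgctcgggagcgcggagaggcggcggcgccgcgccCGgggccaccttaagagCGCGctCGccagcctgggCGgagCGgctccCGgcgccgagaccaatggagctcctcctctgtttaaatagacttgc
Wif1 promoter: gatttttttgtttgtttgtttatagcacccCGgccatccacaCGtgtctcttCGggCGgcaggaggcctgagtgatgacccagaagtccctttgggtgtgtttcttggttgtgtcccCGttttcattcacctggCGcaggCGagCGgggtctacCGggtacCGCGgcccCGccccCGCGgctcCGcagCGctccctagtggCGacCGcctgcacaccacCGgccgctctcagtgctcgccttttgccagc
Socs1 promoter: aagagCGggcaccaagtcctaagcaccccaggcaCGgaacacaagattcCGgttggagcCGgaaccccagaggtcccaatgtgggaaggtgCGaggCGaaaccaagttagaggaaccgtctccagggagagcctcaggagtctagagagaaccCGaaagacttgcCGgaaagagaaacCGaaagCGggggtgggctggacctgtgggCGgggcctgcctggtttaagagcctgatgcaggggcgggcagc
Timp3 promoter: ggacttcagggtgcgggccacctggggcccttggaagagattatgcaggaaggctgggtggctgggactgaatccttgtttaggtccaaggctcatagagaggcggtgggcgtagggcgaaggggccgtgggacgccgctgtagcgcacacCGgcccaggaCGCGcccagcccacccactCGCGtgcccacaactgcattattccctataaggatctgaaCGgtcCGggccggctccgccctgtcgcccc

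These windows were nearly unmethylated in every library, except that of Timp3. Over its 9 measured positions, Timp3 stood at 4.20, 10.3 and 11.6% in KI LT-HSC, ST-HSC and MPP, against 2.59, 3.50 and 3.14% in Control. In Wif1, 25 positions gave 1.71, 1.45 and 2.75% in KI, against 0.533, 2.23 and 0% in Control. The window of Cdkn2a, with 6 positions before its upstream start, lay between 0 and 3.51% in KI and between 0 and 3.42% in Control. That of Cdkn1b was between 2.07 and 4.18% in KI and between 0.931 and 2.16% in Control. That of Socs1 was between 2.46 and 3.64% in KI and between 1.29 and 3.98% in Control. The inner start of Cdkn2a held 0 shared positions, so its promoter is not covered by these values.

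Gene ends were low in nearly all members, while bodies fell into unmethylated islands and methylated stretches (heat map of levels). The mean level over the 6 libraries was under 10% in 21 of 24 gene ends, or 87.5%, against 82.8% of all 13894 gene ends. The others were Rassf1, Dkk3 and Mgmt. The measured positions at the ends of Mgmt lie at the end of the gene far from its RefSeq start and were at 98.6, 98.6 and 98.4% in KI and 94.96, 96.3 and 99.7% in Control. Of the bodies, those of Mgmt, Dapk1, Rarb, Cdh1 and Cdh13 were at or above 68.2% in every library, and that of Wt1 was near 50%. Since the cells were pooled, a level between 0 and 100% does not tell partly methylated cells from a mixture of methylated and unmethylated ones.

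**Figure D1:**
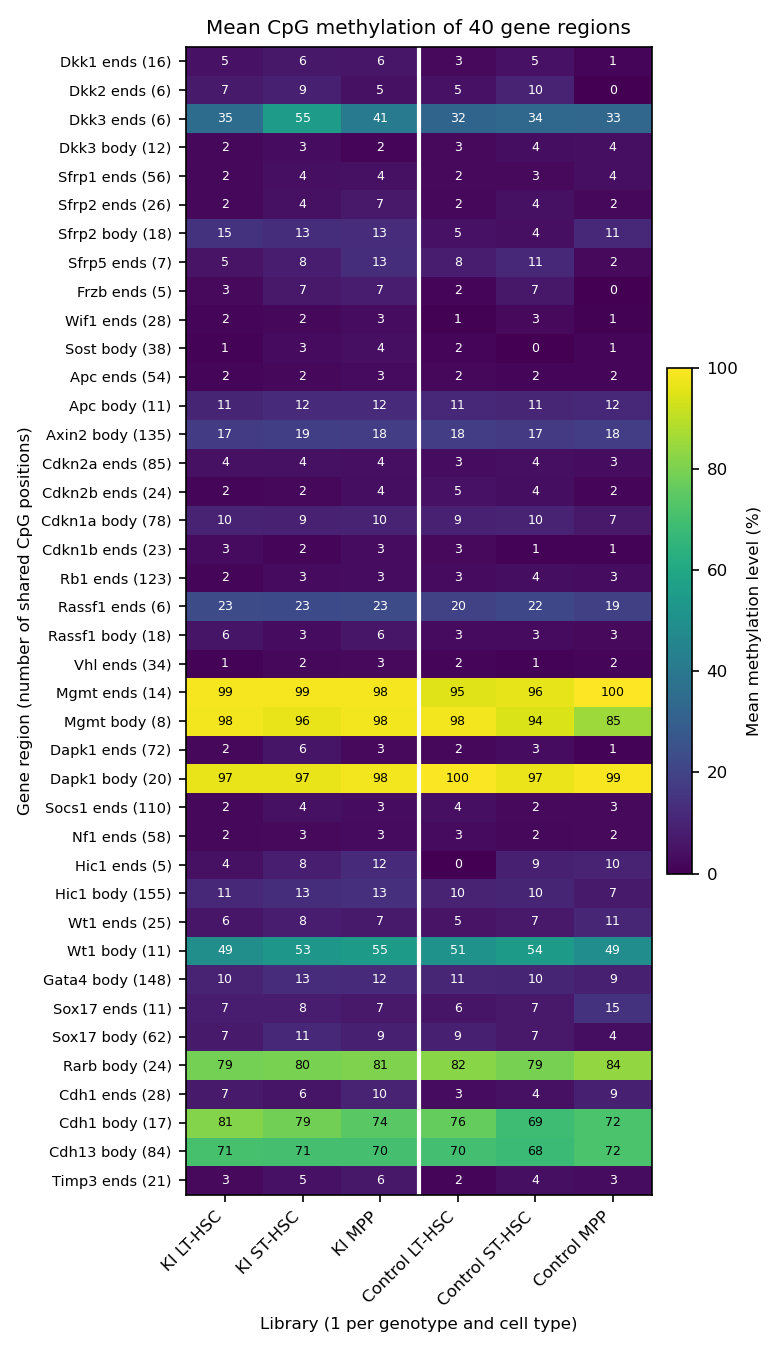
Mean methylation level (%) of the 24 gene ends and 16 gene bodies with at least 5 shared CpG positions, 1 row per region with its number of positions, in the 3 KI libraries (left) and the 3 Control libraries (right). Most gene ends, but not most bodies, are under 10% in every library, and the bodies of Mgmt, Dapk1, Rarb, Cdh1 and Cdh13 are high in all 6.

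KI differed from Control by small amounts at most of the 40 regions. A difference of 10 points or more was seen at Dkk3 in ST-HSC, at Sfrp5 in MPP and in the body of Mgmt in MPP, all higher in KI. At gene ends this made 0, 1 and 1 of 24 in the 3 cell types. Of all gene ends, 1.59, 2.48 and 2.63% were at least 10 points higher in KI in LT-HSC, ST-HSC and MPP, while 0.842, 0.367 and 0.914% were that much lower, so the counts are near the background. Among gene ends with a mean level under 10%, a class that holds Sfrp5, 10 points either way were rarer, at 0.461, 0.313 and 1.02%. At bodies it made 0, 0 and 1 of 16, against a background of 4.02, 6.08 and 6.42% higher and 1.64, 0.641 and 1.37% lower. The median KI minus Control difference of the 24 ends was 0.679, 0.704 and 1.61 points in LT-HSC, ST-HSC and MPP, beside -0.137, 0.618 and 1.24 over all gene ends. For the 16 bodies it was -0.479, 1.90 and 2.48 points, beside 0.281, 1.16 and 1.22 over all bodies.

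In direction, 15, 18 and 21 of the 24 ends were higher in KI in LT-HSC, ST-HSC and MPP, while 46.1, 66.9 and 72.9% of all gene ends were. Of the 16 bodies it was 6, 12 and 12, beside 54.6, 69.1 and 65.5% of all bodies. KI was higher in all 3 cell types at 9 of the 24 ends and lower in all 3 at 0, against 23.3 and 5.14% of all gene ends. The 9 were Dkk1, Dkk3, Frzb, Cdkn2a, Cdkn1b, Rassf1, Dapk1, Cdh1 and Timp3. Of the bodies, Sfrp2, Rassf1, Hic1 and Cdh1 were higher in all 3, and those of Dkk3 and Dapk1 were lower in all 3, beside 28 and 5.91% of all bodies. All 3 KI libraries lay above all 3 Control libraries at 2 ends (Dkk3 and Rassf1) and 3 bodies (Sfrp2, Rassf1 and Hic1), where the background was 11.4% of ends and 14.7% of bodies. They lay below all 3 at 0 regions, beside 1.53% of ends and 1.94% of bodies. A mean over positions and a share of pooled reads, which gives deep positions more weight, had opposite signs in 19 of the 120 comparisons of a member region within a cell type. With pooled reads, KI was higher in all 3 cell types at 10 ends and 3 bodies. Among the 10 were Dkk2, Sfrp1 and Wif1, while Rassf1 and Timp3 were not, and the 3 bodies were those of Sost, Rassf1 and Hic1.

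No member passed the test across libraries. With limma, run on log2 of the methylated over the unmethylated reads, the 3 KI libraries were compared with the 3 Control libraries with cell type in the model. It called 0 of the 40 regions at a Benjamini-Hochberg adjusted p under 0.05, and 1 of all 21537 regions, or 0.00464%. At an unadjusted p under 0.05 there were 6 member regions, all higher in KI, beside 6.62% of all regions. They were the ends of Dkk1, Dkk2 and Wif1 and the bodies of Sfrp2, Rassf1 and Hic1, and the smallest adjusted p from limma was 0.698, at Dkk1. The log2 ratio was higher in KI at 28 of 40 member regions, with a median of 0.29 beside 0.20 over all regions. The spread in this test is that of the KI minus Control difference between cell types. limma moderates it toward the spread of all regions fitted together, so the p-values rest partly on other regions. Whether the libraries of a genotype came from the same mice was not given in the sources used here.

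**Figure D2:**
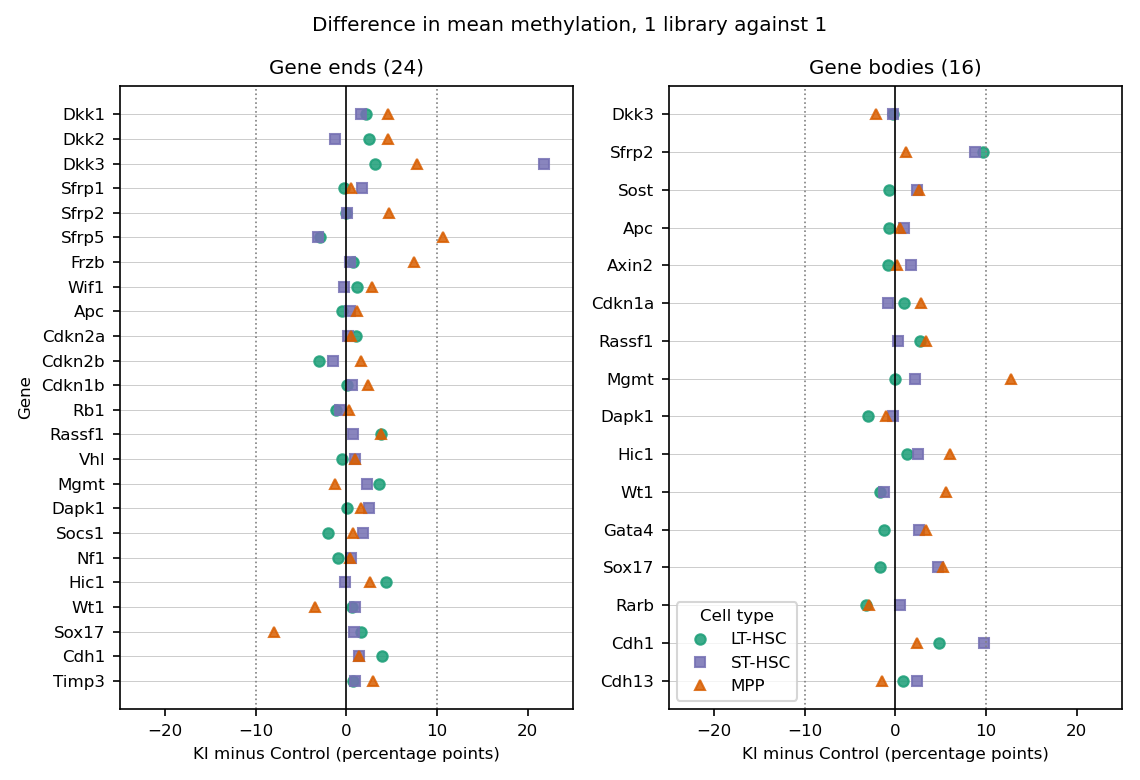
KI minus Control difference in mean methylation (percentage points) at 24 gene ends (left panel) and 16 gene bodies (right panel), with a symbol for each cell type and dotted lines at 10 points to each side of 0. Each symbol is 1 KI library against 1 Control library; those beyond the dotted lines are Dkk3 in ST-HSC, Sfrp5 in MPP and Mgmt in MPP.

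Among the genes grouped here as secreted WNT antagonists, Dkk3 had the largest difference, and it rested on the ST-HSC libraries. Dkk3, a divergent member of the Dickkopf family, spans chr7:112116019-112159482. The 6 positions at its ends stood at 35.2, 55.5 and 41.0% in KI LT-HSC, ST-HSC and MPP, against 32.1, 33.6 and 33.2% in Control. The 3 Control values were within 2 points of each other, and each KI value was above them. The mean difference was 10.9 ± 9.75 points (SD, n = 3 cell types, no replicates among them), with an adjusted p of 0.814 from limma. Without the ST-HSC pair the mean was 5.47 points. Pooled over reads, the share in ST-HSC was 52.7% of 167 reads in KI (Wilson 95% interval 45.1 to 60.1) and 27.9% of 104 reads in Control (20.2 to 37.2). These intervals cover counting error only, and 1 molecule can be counted at several positions.

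The 6 positions of Dkk3 differed in which library was high. The position at base 112159057 stood at 60.7% in KI ST-HSC, against 9.09% in Control ST-HSC, on 28 and 22 reads. In MPP the same position stood at 18.8% in KI and 26.1% in Control. At base 112159127 it was MPP that differed, with 52.9% in KI on 17 reads and 0% in Control on 14. With a coverage of at least 20 reads in every library only 2 of the 6 positions remain, so the region is no longer compared. Neither position passed Fisher's exact test at an adjusted p under 0.01 (adjusted p of 0.0217 and 0.0182). A CpG island in the body of Dkk3, with 12 positions from base 112158303 to base 112158430, was nearly unmethylated in every library, at 2.31, 3.31 and 1.81% in KI and 2.61, 3.62 and 3.94% in Control.

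Sfrp5 differed in direction between cell types. This gene encodes a secreted Frizzled-related protein, which binds WNT ligands. Its 7 positions all lie within about 100 bases of the RefSeq start at base 42202252 of chromosome 19. They stood at 5.14, 7.87 and 13.1% in KI LT-HSC, ST-HSC and MPP, against 8.03, 11.01 and 2.48% in Control. KI was thus 10.6 points higher in MPP, and lower by 2.88 and 3.14 points in LT-HSC and ST-HSC. The 2 groups of libraries overlapped, the mean difference was 1.54 ± 7.88 points, and without the MPP pair it was -3.01. At a coverage of at least 20, 4 positions remain, too few to compare, and with reads thinned to 10 per position the MPP difference was under 10 points. At single CpGs of Sfrp5, 0 passed Fisher's exact test, the smallest adjusted p in MPP being 0.0256 at base 42202152, where KI stood at 29.3% on 58 reads and Control at 0% on 23.

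Sfrp2, of the same family, had higher levels in KI in a stretch just inside the gene (plot of single positions). Sfrp2 was chosen for description after its values were seen, as were all other members beyond Dkk3, Sfrp5, Cdkn2a, Cdkn2b, Mgmt and the single CpGs of Gata4, Hic1 and Cdh13. The 18 positions of its body fill chr3:83766807-83767030, on average 597 bases downstream of the RefSeq start. They stood at 14.6, 13.1 and 12.6% in KI LT-HSC, ST-HSC and MPP, against 4.93, 4.27 and 11.3% in Control. All 3 KI values were above the Control values, though in MPP by 1.22 points only. Pooled over reads, the order in MPP was the reverse, with 12.6% in KI and 13.3% in Control. In LT-HSC 12 of the 18 positions were higher in KI and 4 lower, and in ST-HSC 12 and 2. At 3 positions in KI LT-HSC and 12 in Control LT-HSC the level was 0%. limma gave a log2 ratio of 1.10 (SE 0.44, unadjusted p 0.0403, adjusted p 0.727). The 25 positions nearest the start had low means, of 2.02 to 6.39% in KI and 2.13 to 4.35% in Control.

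**Figure D3:**
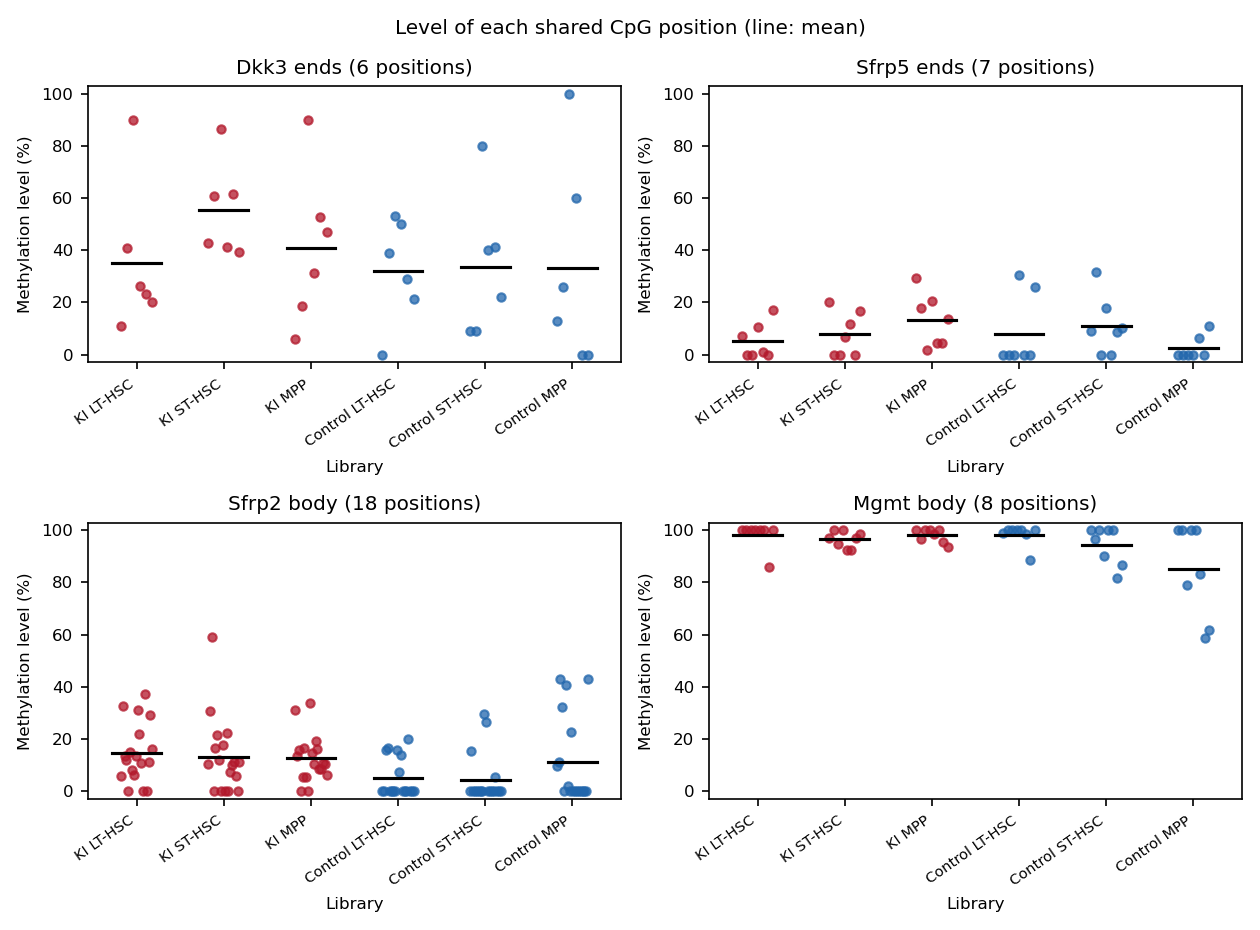
Methylation level (%) of each shared CpG position of the ends of Dkk3 and Sfrp5 and the bodies of Sfrp2 and Mgmt, by library, with KI in red left of Control in blue and a line at the mean. The points of Dkk3 spread from 6.06 to 90% in KI MPP and from 0 to 100% in Control MPP, so the means rest on few and unlike positions, and the low points of Mgmt are in Control MPP.

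The other secreted antagonists were low in all libraries. Dkk1 and Dkk2 bind the WNT co-receptors Lrp5 and Lrp6. Dkk1, with 16 positions, stood at 4.76, 6.45 and 5.86% in KI and 2.63, 4.86 and 1.21% in Control. Dkk2, with 6, stood at 7.23, 8.77 and 4.55% in KI and 4.76, 9.97 and 0% in Control. Frzb, another Frizzled-related protein, had 5 positions at 2.59, 6.95 and 7.48% in KI and 1.86, 6.55 and 0% in Control. The 0 of Dkk2 and Frzb in Control MPP stood for 0 of 152 and 0 of 188 methylated reads, which allow shares of up to 1.97 and 1.60%. Sfrp1, Wif1, and the body of Sost, an antagonist made by bone cells, stayed at or below 4.40% in every library. In MPP, 10 of the 11 regions of this group were higher in KI, with a median difference of 4.55 points, beside 72.9% of all ends and 65.5% of all bodies, with medians of 1.24 and 1.22. For LT-HSC the group had 6 of 11 higher and a median of 0.728 points, and for ST-HSC 7 of 11 and 0.404. Of the members' positions 45.7% read 0% in KI MPP and 70.4% in Control MPP. The part of this in the differences was not tested.

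Inside the cell, Apc and Axin2 hardly differed. Apc, the scaffold of the beta-catenin degradation complex, had 54 positions at its ends at 1.78, 2.34 and 2.97% in KI and 2.24, 1.92 and 1.74% in Control. Axin2, a scaffold that WNT signalling itself induces, had 135 body positions at 17.3, 18.6 and 18.3% in KI and 18.1, 17.0 and 18.1% in Control. They join an island of 94 positions, with a mean at or below 3.95% in every library, to methylated stretches deeper in the gene. One such stretch, chr11:108936577-108936707 with 5 positions, was higher in all 3 KI libraries, at 95.4, 97.8 and 93.1% in KI against 84.5, 86.6 and 85.7% in Control. Another, chr11:108942311-108942341 with 2 positions, was lower in all 3, at 88.1, 97.7 and 88.8% in KI against 100, 100 and 90% in Control. The single position at base 108941762 was also lower in all 3, at 82.6, 96.2 and 91.1% in KI against 93.3, 100 and 95.8% in Control. These were singled out after their values were seen.

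The cell cycle inhibitors had low levels where they were measured. Cdkn2a, which encodes p16 and Arf, and its neighbour Cdkn2b, which encodes p15, are frequent targets of silencing in leukaemia. The 85 end positions of Cdkn2a stood at 4.35, 4.34 and 3.98% in KI LT-HSC, ST-HSC and MPP, against 3.27, 4.18 and 3.42% in Control. KI was higher by 1.08, 0.157 and 0.562 points, and the libraries overlapped (log2 ratio 0.43, SE 0.42, adjusted p 0.877 with limma). Of these positions 71 lie within 1 kb of the upstream start at base 89294619 of chromosome 4. The inner start at base 89282192 held 0 shared positions. That start was not measured here, so the product made from it cannot be judged. The 71 positions are shared with the overlapping gene Gm12610. At the upstream start the level was 2.71, 2.57 and 3.32% in KI, against 1.72, 2.24 and 1.88% in Control, and each KI library was above every Control library, by at most 1.44 points within a cell type.

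Cdkn2b did not keep 1 direction. Its 24 positions stood at 1.73, 2.16 and 3.55% in KI LT-HSC, ST-HSC and MPP, against 4.77, 3.60 and 1.92% in Control. KI was lower in LT-HSC and ST-HSC and higher in MPP, with a mean difference of -0.953 ± 2.37 points (limma adjusted p 0.958). Without the LT-HSC pair the mean was 0.0904. Cdkn1b, which encodes p27, had 23 end positions at a mean of at most 3.23% in every library, and Rb1, the retinoblastoma gene, had 123 at a mean of at most 3.79%. The body of Cdkn1a, which encodes p21, stood at 10.1, 9.12 and 9.75% in KI and 9.23, 9.98 and 6.95% in Control. With pooled reads it was 6.54, 11.7 and 14.1% in KI and 12.7, 17.9 and 12.6% in Control, so the direction in LT-HSC turned. Of the 78 body positions, 35 lie within 1 kb of the RefSeq start at base 29093769 of chromosome 17. These 35 stood at 5.82, 3.97 and 6.13% in KI LT-HSC, ST-HSC and MPP, against 4.01, 5.14 and 1.33% in Control.

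Of the genes of signalling and repair, Mgmt differed in MPP and Rassf1 slightly in all cell types. Mgmt, which removes alkyl groups from guanine in DNA, had 8 body positions at 98.2, 96.5 and 98.1% in KI LT-HSC, ST-HSC and MPP, against 98.3, 94.4 and 85.3% in Control. The 12.8 points in MPP come from the lower Control MPP library. There, 2 positions at bases 137119879 and 137119939 stood at 58.8 and 61.6% in Control, against 95.7 and 93.7% in KI, and both were called by Fisher's exact test. The mean difference of the body was 4.95 ± 6.86 points (limma adjusted p 0.871), and 1.04 without the MPP pair. With reads thinned to 10 per position, the MPP difference was under 10 points.

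Rassf1, a Ras-associated scaffold often silenced in human tumours, had higher mean levels in KI in its ends and its body. The 6 end positions stood at 23.4, 22.5 and 22.7% in KI and 19.6, 21.8 and 18.8% in Control, but with pooled reads the order in MPP was the reverse, at 13.4% in KI and 13.7% in Control. Its 18 body positions lie within 1 kb of the start at base 107554583 of chromosome 9 and stood at 5.84, 3.28 and 6.03% in KI, against 3.11, 2.96 and 2.64% in Control. In limma the log2 ratio was 1.18 (SE 0.40, unadjusted p 0.0218, adjusted p 0.712). The ends of Dapk1, a kinase of cell death, had 72 positions at 2.09, 5.83 and 2.69% in KI and 2.01, 3.35 and 1.10% in Control. Socs1, which restrains cytokine receptors, Nf1, which restrains Ras, and Vhl, which marks hypoxia factors for degradation, were at or below 4.30% in every library. The direction differed between cell types in all 3.

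Among the transcription factors, the body of Hic1 was higher in each KI library than in every Control library. Hic1 is a zinc finger repressor named for its hypermethylation in cancer, at chr11:75161377-75170255, and 155 of its 160 positions lie in the body. They stood at 11.2, 12.96 and 13.3% in KI LT-HSC, ST-HSC and MPP, against 9.93, 10.5 and 7.31% in Control. KI was above Control by 1.25, 2.48 and 6.03 points in the 3 cell types. limma gave a log2 ratio of 0.77 (SE 0.30, unadjusted p 0.0374, adjusted p 0.727).

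The levels of Hic1 were highest about 4 kb downstream of its upstream start (plot of Hic1 by distance). A stretch of 53 positions at chr11:75166372-75166913 stood at 15.7, 18.5 and 19.99% in KI and 13.5, 16.0 and 10.5% in Control. The neighbouring 19 positions stood at 24.8, 28.3 and 25.9% in KI and 23.4, 19.9 and 19.5% in Control. The 47 positions between the 2 RefSeq starts had a mean at or below 4.87% in every library. Single positions between these starts reached 57.1% in KI ST-HSC (base 75168340, 14 reads) and 50% in Control LT-HSC (base 75168962, 58 reads). Of single CpGs in Hic1, Fisher's exact test called 8 higher in KI MPP and 1 lower, with 4 and 3 for LT-HSC and 1 of each for ST-HSC. These calls make up 4.38, 1.25 and 5.63% of its 160 positions in LT-HSC, ST-HSC and MPP, beside 2.62, 0.672 and 3.74% of all shared positions. At 7 of the 8 higher in MPP the Control MPP library read exactly 0%.

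**Figure D4:**
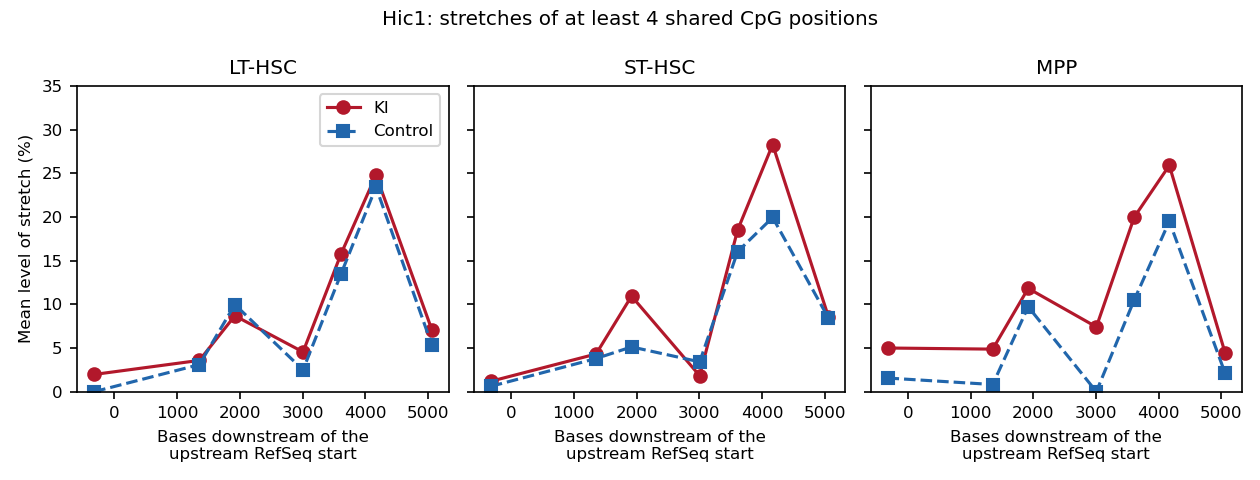
Mean methylation level (%) of the stretches of Hic1 with at least 4 shared CpG positions against their distance in bases downstream of the upstream RefSeq start, 1 panel per cell type, with KI in red and Control in blue. The level peaks about 4 kb downstream in every library, and in MPP the stretch of 53 positions stood at 19.99% in KI and 10.5% in Control.

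Gata4, a cardiac and endoderm factor not normally used in blood, had 18 called CpGs, in both directions, the most by number. As a share of positions, 12.2% were called in any cell type, below the 17.8% of Cdh1, 13.9% of Wt1, 13.6% of Mgmt and 13.1% of Cdh13, and above the 6.09% of all member positions. Its 148 body positions stood at 9.54, 12.8 and 12.4% in KI LT-HSC, ST-HSC and MPP, against 10.8, 10.2 and 8.96% in Control. In MPP 9 CpGs were higher in KI and 6 lower, and at 8 of the 9 Control MPP read 0%. In LT-HSC 1 was higher and 5 lower. The share called was 4.05% in LT-HSC and 10.1% in MPP, beside 2.62 and 3.74% of all shared positions. At base 63245279 the level was 29.4% in KI and 0% in Control LT-HSC, and 47.1% in KI and 0% in Control MPP, but 31.2% in KI and 25% in Control ST-HSC. Base 63240769 differed in both directions, with 17.4% in KI and 61.1% in Control LT-HSC, and 32.3% in KI and 0% in Control MPP.

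The other transcription factors had no common direction. Sox17, an endoderm and fetal stem cell factor, had ends at 7.42, 7.52 and 6.76% in KI and 5.85, 6.69 and 14.8% in Control, the Control MPP library standing apart. Its body stood at 7.24, 11.5 and 8.73% in KI and 8.93, 6.75 and 3.53% in Control. The body of Wt1, the Wilms tumour gene, stood at 49.4, 53.0 and 54.6% in KI and 51.1, 54.3 and 49.0% in Control. The body of Rarb, a retinoic acid receptor, stood at 79.1, 80.02 and 80.7% in KI and 82.4, 79.5 and 83.6% in Control. The start of Rarb held 2 shared positions.

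Of the adhesion and matrix genes, Cdh1 had higher mean levels in KI in both its ends and its body. Cdh1 encodes E-cadherin, the main adhesion protein of epithelia. Its body, with 17 positions, stood at 81.3, 78.8 and 74.2% in KI LT-HSC, ST-HSC and MPP, against 76.4, 69.0 and 71.9% in Control. With pooled reads the body in MPP was lower in KI, at 70.5% against 76.2% in Control. A pair of positions at chr8:106611160-106611195 stood at 100, 62.8 and 54.4% in KI, against 48.0, 37.5 and 23.5% in Control. One of the pair was called in LT-HSC and in MPP in the same direction, while at base 106606904 KI was called lower in both, at 63.0 and 31.5% in KI against 91.9 and 84.9% in Control. The gene ends of Cdh1 stood at 7.19, 5.76 and 10.1% in KI and 3.22, 4.39 and 8.70% in Control. limma adjusted p was 0.914 for the body of Cdh1 and 0.834 for its ends.

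Cdh13, which encodes a cadherin without the usual cell anchor, had 84 body positions at 71.0, 70.5 and 70.4% in KI and 70.2, 68.2 and 71.9% in Control. With pooled reads the body was lower in KI LT-HSC, at 59.2% (Wilson 95% interval 57.7 to 60.6) against 75.8% (74.5 to 77.0) in Control LT-HSC, which turned the direction there and passed 10 points. These intervals cover counting error only, and not the weight that deep positions carry in pooled reads. Cdh13 held 11 called CpGs in all, with 4 higher and 3 lower for LT-HSC, 1 of each for ST-HSC and 2 of each for MPP. This was 8.33, 2.38 and 4.76% of its 84 positions, beside 2.62, 0.672 and 3.74% of all shared positions. At base 118285906 KI stood at 6.90, 11.1 and 9.59% in LT-HSC, ST-HSC and MPP, against 36.1, 36 and 100% in Control, and the call was made in LT-HSC and MPP. A stretch of 9 positions at chr8:118942631-118942710 was also lower in KI, at 82.4, 84.5 and 83.3% against 91.4, 93.6 and 91.1% in Control. Timp3, an inhibitor of matrix proteases whose gene lies within Syn3, stood at 2.54, 4.86 and 6.36% in KI and 1.81, 3.93 and 3.43% in Control at its 21 end positions. In Thbs1, which encodes thrombospondin, the 2 end positions stood at 9.87, 20.2 and 17.5% in KI and 6.25, 7.88 and 15.1% in Control.

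Around RefSeq starts, levels were low and mostly higher in KI. The RefSeq starts gave 20 windows of 1 kb to each side with at least 5 shared positions, a choice added after the data were seen. Many of these windows hold the same positions as the ends or bodies above, so their counts are not separate evidence. The 3 ends lower in KI in MPP, those of Sox17, Wt1 and Mgmt, have no window here. No RefSeq start was at hand for Sox17 and Wt1, and the starts of Mgmt held 0 shared positions. KI was higher at 14, 14 and 20 of the 20 in LT-HSC, ST-HSC and MPP, against 45.4, 66.3 and 73.8% of 12485 start windows. The median difference was 0.727, 0.613 and 2.86 points, beside -0.167, 0.568 and 1.25 over all starts. KI was higher in all 3 cell types at 10 of the 20, beside 22.9% of all, and lower in all 3 at 0, beside 5.03%. The KI libraries all stood above the Control libraries at 5, beside 11.1%: Cdkn2a, Hic1, Sfrp2 and both starts of Rassf1. Sfrp2 had the largest mean difference of these 5, with 7.18, 7.99 and 9.13% in KI, against 3.24, 4.38 and 5.84% in Control. With limma 0 of the 20 were called, and the smallest adjusted p was 0.778. In MPP these counts go with the large share of positions at 0% in the Control MPP library, given above, and the part of that share was not tested.

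Single CpGs were called at close to the rate of the genome. Fisher's exact test was run on the reads of 2 libraries, and a position counted as called where the adjusted p was below 0.01 and the libraries lay 25 points or more apart. Of the 1692 member positions, 43 passed in LT-HSC (2.54%), 12 did so for ST-HSC (0.709%) and 57 for MPP (3.37%), against a background of 2.62, 0.672 and 3.74% of all shared positions. Calls higher and lower in KI numbered 19 and 24 for LT-HSC, 8 and 4 for ST-HSC, and 30 and 27 for MPP. Over the genome 1.28, 0.557 and 2.26% were called higher and 1.34, 0.115 and 1.49% lower. These calls compare 2 libraries, not the genotypes.

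The calls were scattered over 20 of the members, and 12 had none. Of 103 positions called in any cell type, 94 were called in 1 cell type only, 5 in the same direction in more than 1, 4 in opposite directions, and 0 in all 3. Of the 30 higher calls in MPP, 17 were at 0% in Control MPP. Where both strands of a member CpG were measured, at 279 CpGs, 3 were called on both strands in MPP and 0 in LT-HSC and ST-HSC, while 10, 3 and 11 were called on 1 strand only in LT-HSC, ST-HSC and MPP. These counts of recurrence and of strands were made for member positions only. They have no share over all shared positions beside them, so they cannot be called particular to these genes. Thinned to 10 reads per position, 0 member positions were called in any cell type, but 0 of all 552338 shared positions were called either. So few reads leave little room to pass the adjustment, so this setting does not tell how firm the calls are.

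The partly methylated positions differed most, as they did in the genome (plot by level). The 107 member positions with a mean of 20 to 80% stood at 35.7, 39.5 and 39.6% in KI LT-HSC, ST-HSC and MPP, against 38.1, 33.6 and 34.3% in Control. KI minus Control was -2.40, 5.89 and 5.28 points, beside 2.11, 7.97 and 4.09 over all shared positions of that class. In LT-HSC the sign was thus opposite to that of the genome, with 59.8% of the 107 positions lower in KI. At the 1422 positions under 20%, which make up 84.0% of the members' positions and 75.4% of all, the differences were 0.104, 1.13 and 1.91 points. Over all shared positions of that class they were 0.0268, 0.739 and 1.54. At the 163 over 80% they were 0.387, 2.20 and -1.61, beside 0.195, 0.880 and 0.333 over all shared positions of that class. In MPP the sign was thus opposite there. Neighbouring positions share fragments and are not independent, and no test was made over them.

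**Figure D5:**
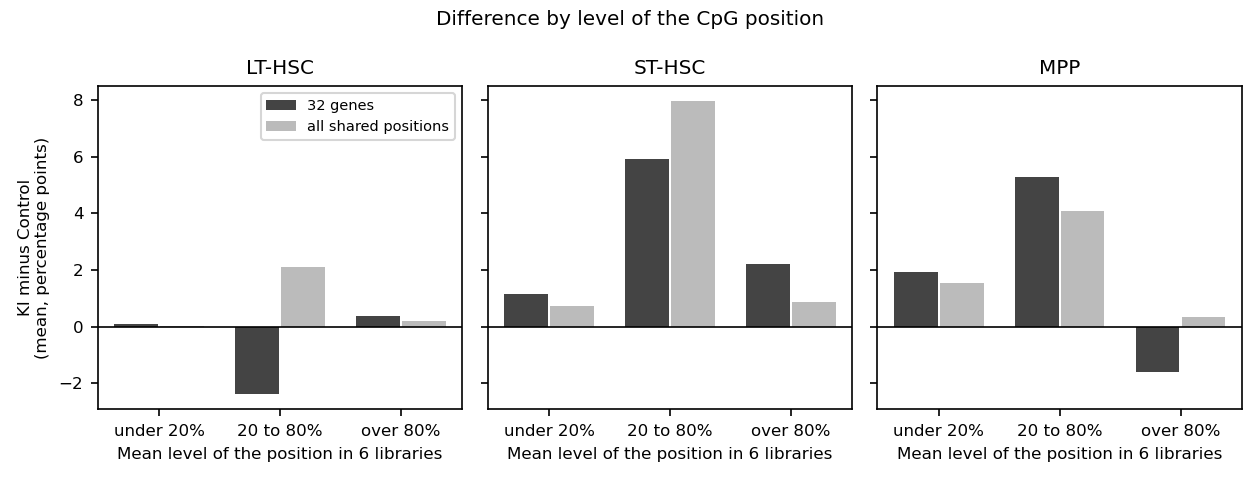
Mean KI minus Control difference (percentage points) over positions with a mean level under 20%, of 20 to 80% and over 80%, for the positions of the 32 genes (dark bars) and all shared positions (light bars), 1 panel per cell type. Bars start at 0 and carry no error because each group is 1 library; at 20 to 80% the dark bar is below 0 in LT-HSC and at 5.89 and 5.28 points in ST-HSC and MPP.

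From stem cells to progenitors, the members shifted by small amounts at most regions. MPP minus LT-HSC had a median of 1.38 points at the 24 ends in KI and -0.0587 in Control, beside 1.17 and -0.228 over all gene ends. At the 16 bodies it was 1.25 points in KI and -0.432 in Control, beside 0.986 and 0.0160. No member's ends differed by 10 points in either genotype. Of all ends, 1.70% were that much higher in MPP and 0.453% lower in KI, and 2.33% higher and 1.36% lower in Control. Of the bodies, that of Mgmt alone passed 10 points, in Control, where MPP minus LT-HSC was -12.96 points, while it was -0.14 in KI. Of all bodies, 4.51% were 10 points or more higher in MPP and 1.06% lower in KI, and 5.16% higher and 3.68% lower in Control. These values use the same libraries as the comparison of genotypes. limma called 0 of 40 member regions and 0% of all regions, with 4 member regions at an unadjusted p under 0.05, beside 8.54% of all. The smallest adjusted p from limma was 0.291, at the 5 end positions of Hic1. They stood at 12.3% in MPP and 4.44% in LT-HSC in KI, and at 9.66% in MPP and 0% in LT-HSC in Control. Among them, 1 position carried much of the shift, at 41.4% in MPP and 14.3% in LT-HSC in KI. In Control it stood at 42.0% in MPP and at 0% in LT-HSC, the latter on 13 reads.

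Other genes of these pathways also differed by small amounts. Of 70 further WNT genes, among them the ligands, Frizzled receptors and transcription factors, 56 ends and 49 bodies were measured. None of the ends was 10 points apart between KI and Control, and 3 bodies were, all higher in KI: that of Rspo1, a WNT enhancer, in ST-HSC (68.2% in KI, 47.97% in Control), and those of its receptors Lgr5 (39.5% in KI, 18.6% in Control) and Lgr6 (59.6% in KI, 47.1% in Control) in MPP. Of the 49 bodies this made 0, 1 and 2 higher in LT-HSC, ST-HSC and MPP, beside 4.02, 6.08 and 6.42% of all bodies. Of all gene ends, 2.43, 2.85 and 3.55% were 10 points apart either way. The median differences of these WNT genes were -0.0617, 0.348 and 1.07 points at ends in LT-HSC, ST-HSC and MPP. Of 42 further cell cycle inhibitors and tumour suppressors, 33 ends and 23 bodies were measured. Cdkn1c, an imprinted cell cycle inhibitor, had ends 13.7 points higher in KI MPP, and Plagl1, another imprinted gene, stood at 41.1% in KI MPP and 51.5% in Control MPP. Of the 33 ends this made 1 higher and 1 lower in MPP, beside 2.63% higher and 0.914% lower of all gene ends. The medians of this list at ends were 0.232, 0.521 and 1.68 points, and limma called 0 regions of either list. Bodies 10 points or more higher in KI were those of Cdkn1c and Reck, a matrix protease inhibitor, in LT-HSC, and of Cdkn1c and Esr1, an oestrogen receptor, in MPP. This made 2 of 23 in LT-HSC and 2 of 23 in MPP, beside 4.02 and 6.42% of all bodies.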

How the data were processed

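Per the file headers, the deposited files give, for each cytosine of a CpG and each strand, the coverage as a count of reads and the percent of reads with C and T. Per the submitters' processing notes, Bismark 0.10.0, SAMtools 1.0 and methylKit 0.9.1 were used with build mm10. Filters, duplicate removal and conversion rates were not given in the sources used here. Every deposited position had at least 10 reads. Methylated reads were recovered as coverage times percent C, whole at 100% of positions within 0.01% of the coverage.

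The level of a region is the unweighted mean over positions shared by all 6 libraries, strands kept apart. limma 3.58.1 in R 4.3.3 was fitted with a variance trend to log2 ratios with a prior count of 1 over all 21537 regions, with genotype and cell type as terms and Benjamini-Hochberg adjustment. Fisher's exact test ran on all 552338 shared positions per cell type. limma was tried on simulated reads with planted shifts larger than the KI against Control log2 ratio of any member. The Fisher p-values were compared with those of another implementation on random counts. Neither check tells the power for differences of the size seen here. Differences of 10 points or more between single libraries were counted with no test. Named in full were Cdkn2a, Cdkn2b, members past 10 points and members called by limma, and single CpGs of the 3 members with most calls. Other members named were chosen after their values were seen. Members and lists were chosen with earlier results of these data known. Cell types stood in for replicates. The limma p-values thus rest on how much the KI minus Control difference varied between cell types and on the variance trend over all regions.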

Additional observations from a re-analysis of the deposited data

Results flagged for a closer look

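Sfrp5 moved in opposite directions with the step from stem cell to progenitor in the 2 genotypes. MPP minus LT-HSC was 7.98 points in KI (13.1% in MPP, 5.14% in LT-HSC) and -5.55 points in Control (2.48% in MPP, 8.03% in LT-HSC), a difference of 13.5 points over 7 positions at the start of the gene. It was singled out because both shifts are at least 5 points and opposite in sign. With 1 library each, the difference was not tested. No other region of the 40 met this rule between genotypes or between cell types. Groups of 1 library allow no search for outlying samples.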

How the results depend on the processing

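Counts of members at least 10 points apart were of 0 or 1 region and moved by 1 to 5 with the settings. Calls were higher in KI unless said otherwise. At ends, KI against Control gave 0 in ST-HSC and 0 in MPP at a coverage of at least 20 and also with at least 10 positions, 2 in MPP with strands merged, 4 in MPP at 5 points, and 1 in LT-HSC and 3 in MPP thinned to 10 reads, each of these MPP counts with Sox17 as its 1 lower call. At bodies it gave 1 in LT-HSC (Cdh13, lower in KI) and 1 in ST-HSC (Sfrp2) with pooled reads, 1, 2 and 4 in LT-HSC, ST-HSC and MPP at 5 points, 0 in MPP with at least 10 positions, and 1 in ST-HSC and 0 in MPP thinned to 10 reads. For MPP against LT-HSC at ends, KI gave 1 with pooled reads and 3 at 5 points, and Control gave 1 with pooled reads, 1 with strands merged, 5 at 5 points and 2 thinned, all higher in MPP but Sfrp5 at 5 points in Control. The median difference at ends in LT-HSC, 0.679, was 0.0893 with at least 10 positions, 0.184 with strands merged, 0.236 at a coverage of at least 20 and 0.441 with pooled reads. In MPP it was 1.08 with at least 10 positions and 0.660 at a coverage of at least 20, and pooled reads gave 1.12 at ends in ST-HSC and -1.02 at bodies in LT-HSC. limma called 0 member regions in every alternative run; over all genes, leaving out 1 cell type gave 1 to 100 regions for KI against Control, the 100 without ST-HSC, and MPP against LT-HSC gave 1 at a coverage of at least 20 and 2 with at least 10 positions. Of single CpGs of the members, 27 in LT-HSC and 36 in MPP were called at a coverage of at least 20, 94 and 112 at 10 points, and 0 in LT-HSC, ST-HSC and MPP thinned to 10 reads. Leaving out 1 cell type turned the sign of the mean for Sfrp5 (-3.01 without MPP) and Cdkn2b (0.0904 without LT-HSC). The causes were not tested. MPP against LT-HSC without 1 genotype leaves 1 library a group and was not fitted. The limma model holds cell type as a term and so pairs KI with Control by cell type. Beyond that, no paired analysis was possible because each group had 1 library and so no replicate to pair. Depth of 10 to 358 reads per member position, fewer where reads are copies of 1 molecule, limits what single positions show.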

Other observations

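Positions outside the shared set, covered in both libraries of a cell type but not in all 6, were not used in the comparisons. Among members with at least 5 such positions, the median KI minus Control difference was -0.0655 points over 26 members in LT-HSC, 0.526 over 28 in ST-HSC and 2.55 over 26 in MPP. KI was higher in 13 of 26, 16 of 28 and 20 of 26. None was 10 points higher in KI, while Sfrp5 in ST-HSC stood at 28.2% in KI and 41.8% in Control over 5 positions, and Thbs1 in LT-HSC at 88.7% in KI and 100% in Control over 7. Sfrp4, which had no shared position, had 5 of these in LT-HSC, at 0% in KI and 1.94% in Control, and 5 in ST-HSC, at 2.86% in KI and 4.62% in Control.

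A stretch of 2 positions in Sox17, chr1:4492755-4492772, was lower in KI in all 3 cell types, at 17.3, 16.7 and 11.5% in KI LT-HSC, ST-HSC and MPP, against 44.2, 30.6 and 18.1% in Control. It was chosen after its values were seen and was not tested.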
